A study of Mus musculus with 12 samples.

Results

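The genes described here are 6 endogenous inhibitors of angiogenesis, the sprouting of new blood vessels, in healing bone: Thbs1, Thbs2, Serpinf1, Serpinb5, Cxcl4 (now named Pf4) and Col18a1. They were taken by name from the 100 genes of a membrane array for angiogenesis genes, on which each of the 6 has 1 spot. None of the 6 is on the second array type of the series, which holds hypoxia genes (0 of 6). The study broke the femur of mice labelled WT or HET for HIF-1a, the oxygen-regulated transcription factor, and compared the genotypes 7, 10 and 14 days later. Per the series title the HET mice are partly deficient in HIF-1alpha; the sources used here do not give the strain, the age of the animals, the altered allele or the cells in which it is altered. All groups carried the same fixed closed fracture. Callus RNA, from the repair tissue that bridges the break, was pooled in equal parts from 3 animals per group, and 1 pool per genotype and day was labelled with biotin and hybridised, giving 6 angiogenesis arrays of 12 arrays in all. No group has a repeat array, so a difference between 2 arrays has no replicate check, and the spread between animals cannot be seen.

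Blood vessels grow into a callus as cartilage gives way to bone, and growth factors such as VEGF act there against inhibitors that the same tissue makes. Thrombospondin-1 and thrombospondin-2, the products of Thbs1 and Thbs2, are matrix-associated glycoproteins that act on endothelial cells through receptors that include CD36. Serpinf1 encodes pigment epithelium-derived factor, a secreted serpin without protease-inhibiting activity that bone-forming cells make and whose loss in humans causes a form of osteogenesis imperfecta. Serpinb5 encodes maspin, a related serpin best known from epithelial cells. Cxcl4 encodes platelet factor 4, a chemokine stored in platelet granules, and Col18a1 encodes a basement membrane collagen from which proteases release the inhibitor endostatin.

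The arrays report spot density, the brightness of a spot on a linear scale. A gene was taken to be above background on an array if its spot was brighter than the brightest of the 6 control spots there, which hold PUC18 plasmid DNA or nothing. These limits lay between 162 and 490, set by a PUC18 spot on 5 arrays and by a Blank spot on the WT array at day 14. The brightest spot of any array had a density of 50779, and spots from 45701 upward (90% of it) were treated as at the ceiling, where a spot can hardly get brighter. In WT, 9, 76 and 79 of the 100 genes were above background at days 7, 10 and 14 (9%, 76% and 79%), and 3, 11 and 8 were at the ceiling (3%, 11% and 8%). On the arrays labelled HET, 12, 91 and 44 genes were above background (12%, 91% and 44%), and 4, 7 and 6 were at the ceiling (4%, 7% and 6%). The median gene spot was dim at day 7, at 34.1 in WT and 163 on the array labelled HET. At day 10 it stood at 1738 in WT against 589 in HET, and at day 14 at 1229 against 168, so the HET array was the dimmer one as a whole at both later days. Hif1a, the targeted gene, had densities of 8037, 11449 and 11008 in WT and of 25140, 6924 and 6574 on the arrays labelled HET. The array labelled HET at day 7 thus went against its label for Hif1a, by 3.13-fold in density, on an array whose median gene spot was also brighter. The lower densities at days 10 and 14 stood on HET arrays that were dimmer as a whole. After quantile normalization Hif1a differed, HET minus WT, by 0.35, -0.19 and 0 log2 units at days 7, 10 and 14, and with arrays scaled to their medians by 0.54, 0.88 and 2.15. Whether Hif1a was lower in HET at days 10 and 14 therefore depended on the scaling, and after quantile or median scaling the label was not borne out at day 14 either. The sources used here do not say where on the transcript the array's Hif1a probe lies. Of 3 bone matrix genes fixed as markers of callus (Sparc, Spp1, Fn1), 1 was above background on the WT array at day 7, 2 on the array labelled HET at day 7 and all 3 on each later array.

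At day 7 none of the 6 inhibitor genes was above background in either genotype, beside the 9% and 12% of all genes that were. At day 10, 5 of the 6 were above background in each genotype, and at day 14, 4 in WT and 3 in HET. The thrombospondin genes had the brightest of the 6 spots at days 10 and 14, Serpinf1 followed, and Serpinb5, Cxcl4 and Col18a1 reached no more than 1157. Densities of different genes also depend on their probes, so this order describes spots and is not an order of RNA levels. In pooled tissue RNA, fewer cells that express a gene and less RNA per cell cannot be told apart.

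**Figure D1:**
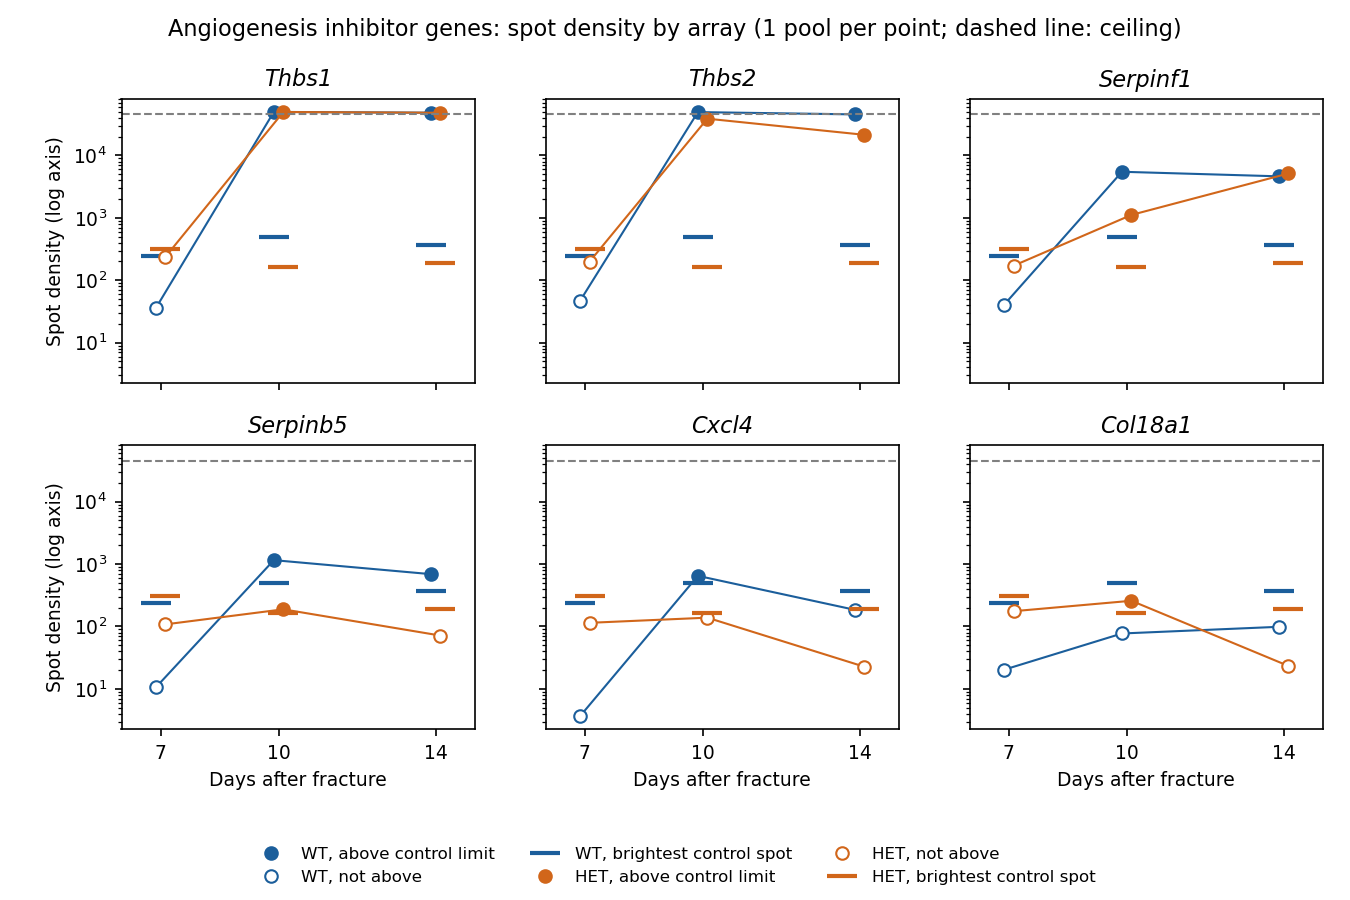
Spot density (vertical, log axis) of each of the 6 genes against days after fracture, 1 array of pooled RNA per point, WT in blue and HET in orange; filled points are above the brightest control spot of their array (short bars), open points are not, and the dashed line is the ceiling at 45701. All points at day 7 are open, and Thbs1 sits above the dashed line on 4 arrays.

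Thbs1, which also activates latent TGF-beta, had a density of 36.3 in WT and 238 on the array labelled HET at day 7. At day 10 it reached 49964 in WT and 49758 in HET, and at day 14 it held 48493 in WT and 48368 in HET. Neither day 7 value is above background, and each of the 4 later values is at the ceiling, at 95.3% to 98.4% of the highest density of any array. The genotypes lay within 0.412% of each other at day 10 and within 0.257% at day 14. Both spots of each pair are at the ceiling, so no fold between the genotypes can be given for Thbs1 at any day, and equal densities there do not show equal RNA.

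Thbs2, whose product also limits matrix metalloproteinase 2 by carrying it into cells, had a density of 46.9 in WT and 198 on the array labelled HET at day 7, both below background. At day 10 it was at the ceiling in WT, at 49614, and below it in HET, at 38898. At day 14 it stood at 45560 in WT, which is 89.7% of the highest density and so just under the ceiling, and at 21451 in HET. The WT spot was therefore brighter than the HET spot by 1.28-fold at day 10 and by 2.12-fold at day 14. The day 10 value is a lower limit because the WT spot had reached the ceiling.

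Serpinf1 had a density of 40.6 in WT and 171 on the array labelled HET at day 7, both below background. At day 10 its density was 5484 in WT and 1115 in HET, which are 11.2 and 6.88 times the control limits of those arrays. At day 14 it was 4633 in WT and 5148 in HET, or 12.4 and 27.1 times the limits. It was the only one of the 6 above background on all 4 later arrays without reaching the ceiling on any. The WT spot was 4.92-fold brighter than the HET spot at day 10, while at day 14 the HET spot was 1.11-fold brighter than the WT spot.

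Serpinb5 had a density of 10.7 in WT and 108 on the array labelled HET at day 7, both below background. It stood at 1157 in WT and 188 in HET at day 10, which is 2.36 and 1.16 times the control limit. At day 14 it was above background in WT, at 690, and below it in HET, at 71.6. The WT spot was 6.14-fold brighter than the HET spot at day 10. No exact fold is given at day 14, since the HET spot there lay at 37.7% of its control limit. Serpinb5 was the only gene on the array among the epithelial markers fixed here (Cdh1, Krt5, Krt14, Krt18, Serpinb5), so the epithelial content of the callus was not tested.

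Cxcl4 was above background on 1 array, that of WT at day 10, where its density of 648 was 1.32 times the control limit. At the same day it reached 138 in HET, 85.4% of the limit there, and no exact fold is given against a spot that did not clear background. Its other densities were 3.66 and 115 at day 7 and 185 and 22.6 at day 14, WT first, none of them above background. It was also the only platelet marker on the array (of Cxcl4, Ppbp and Itga2b), so the share of platelets or clot in the pools was not tested.

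Col18a1 was above background on 1 array as well, that of HET at day 10, with a density of 258, or 1.59 times the control limit. Its densities in WT were 20.3, 77.2 and 98.9 at days 7, 10 and 14, and those on the arrays labelled HET at days 7 and 14 were 176 and 23.3, none of them above background. The WT spot at day 10 lay at 15.8% of its control limit. The array measures the RNA of the whole collagen and not the endostatin fragment, which is made by cleavage of the protein.

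The start regions of the genes are shown because HIF-1 binds DNA at a short core sequence, and the genotypes differ in that factor. From the RefSeq annotation of mouse build GRCm38.p6, all 6 symbols matched a gene, 1 of them through an older name: Thbs1 (gene ID 21825) on chromosome 2, Thbs2 (21826) on chromosome 17, Serpinf1 (20317) on chromosome 11, Serpinb5 (20724) on chromosome 1, Pf4 (56744) on chromosome 5 and Col18a1 (12822) on chromosome 10. Start regions of 300 bases, 250 before to 50 after the start, were found for 5 of the 6 genes, all but Thbs1. They were searched on both strands for the cores ACGTG and GCGTG, and a core is printed in capitals below for the 3 genes with a match and for Thbs2, the bright gene without one. The intervals are chr11:75422574-75422873 (minus strand) for Serpinf1, chr1:106860925-106861224 (plus strand) for Serpinb5, chr5:90772185-90772484 (plus strand) for Pf4 and chr17:14694213-14694512 (minus strand) for Thbs2, each printed 5′ to 3′ on the strand of its gene.
Serpinf1: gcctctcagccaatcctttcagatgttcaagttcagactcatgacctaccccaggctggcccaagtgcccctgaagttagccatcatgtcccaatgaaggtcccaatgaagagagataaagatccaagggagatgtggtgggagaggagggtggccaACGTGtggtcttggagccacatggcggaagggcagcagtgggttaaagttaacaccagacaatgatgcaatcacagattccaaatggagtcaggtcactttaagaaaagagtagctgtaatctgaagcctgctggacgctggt
Serpinb5: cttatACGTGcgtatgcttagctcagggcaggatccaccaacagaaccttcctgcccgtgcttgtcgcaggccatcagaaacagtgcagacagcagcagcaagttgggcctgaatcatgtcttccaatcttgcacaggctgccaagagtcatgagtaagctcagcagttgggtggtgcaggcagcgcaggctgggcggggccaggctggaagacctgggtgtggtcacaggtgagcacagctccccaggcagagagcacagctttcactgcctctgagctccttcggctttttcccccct
Cxcl4 (Pf4): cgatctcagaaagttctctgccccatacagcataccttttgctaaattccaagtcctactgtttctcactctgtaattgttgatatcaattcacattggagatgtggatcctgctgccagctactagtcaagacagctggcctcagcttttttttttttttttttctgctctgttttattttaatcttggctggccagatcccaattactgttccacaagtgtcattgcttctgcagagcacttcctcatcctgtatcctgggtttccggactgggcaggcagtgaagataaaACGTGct
Thbs2: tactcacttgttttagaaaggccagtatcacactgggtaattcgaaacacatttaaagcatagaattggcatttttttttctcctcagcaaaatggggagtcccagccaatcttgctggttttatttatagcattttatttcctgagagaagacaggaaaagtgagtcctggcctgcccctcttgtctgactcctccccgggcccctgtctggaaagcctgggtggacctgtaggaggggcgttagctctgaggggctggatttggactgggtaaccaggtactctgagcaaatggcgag

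The core ACGTG starts at position -93 from the start in Serpinf1, at -245 in Serpinb5 and at 44 within the transcribed part in Cxcl4, each on the strand of the gene; the first transcribed base is position 1. No match was found in the Thbs2 region or in either of the 2 start regions of Col18a1. Of 32851 start regions of this length in the annotation, 14380 (43.77%) hold at least 1 core on either strand. Among the 5 genes here 3 have a core, but this counts genes and not regions, and Col18a1 has 2 regions without one. These letters are a description of the sequence, and binding was not measured.

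The study compared the genotypes at each day. At day 10, after quantile normalization, 4 of the 5 inhibitor genes with a measurable difference were lower in HET, beside 53.9% of all 76 such genes. Without normalization 4 of 4 were lower, but so were 90.1% of all 71 such genes. Of these 4 inhibitor genes, only Serpinf1 and Serpinb5 had a fold free of a bound and of the ceiling. At day 14 Serpinf1 and Thbs2 went in opposite directions after quantile normalization, and at day 7 no difference could be measured. Because the HET arrays were dimmer as a whole at days 10 and 14, values are given after quantile normalization, which gives the 6 arrays the same distribution, and also without normalization. Where just 1 of the 2 spots cleared background, the difference is a bound, written as at least or at most, and a call means a difference of at least 1 log2 unit (2-fold). A bound can only point toward the genotype whose spot cleared background, so its direction is no evidence of its own.

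At day 10, after quantile normalization, 4 of the 5 members with a fold or bound were called lower in HET and 0 were called higher. Among all 76 genes with a fold, 10 (13.2%) were lower and 6 (7.89%) higher, with a median difference of -0.09 log2 units over all of them and of -1.11 over the 5 members. The 4 were Thbs2 (-1.91, with the WT spot at the ceiling), Serpinb5 (-1.44), Serpinf1 (-1.11) and Cxcl4 (at most -1.08). The fifth, Col18a1, had a bound in the other direction, at least 0.16. The value for Thbs2 is larger than the 1.28-fold difference of its densities, because quantile normalization works on ranks and spots at the ceiling differ little in density but by a full rank each; it is no bound on the difference in RNA. With genes that had a spot at the ceiling of either array left out, a step chosen after seeing the data, 3 of 4 members were called lower and 0 higher. Beside them, 9 of all 72 genes (12.5%) were lower and 6 (8.33%) higher, and the members' median was -1.09.

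Without normalization, 3 of the 4 members with a fold or bound were called lower in HET at day 10 and 0 higher, but so were 45 of all 71 genes with a fold (63.4%), and 2 (2.82%) were higher. The differences were -3.06 log2 units for Serpinb5, -2.36 for Serpinf1, at most -2.48 for Cxcl4 and at most -0.35 for Thbs2. These values are background-corrected, which widens differences of dim spots beyond the ratios of their densities. The median measured difference over all 100 genes was -1.22 without normalization. Relative to it, Serpinb5 stood at -1.84, Cxcl4 at -1.64 and Serpinf1 at -1.14, while Thbs2 stood at 0.87. With arrays scaled to their medians, 1 member of 5 was called lower (Serpinb5, -1.45) against 5.06% of all genes, and 1 higher (Thbs2, 1.26, its WT spot being at the ceiling) against 24.1%. With arrays scaled to reference genes, 3 of 4 were called lower against 50.7% of all genes, and 0 higher against 4.23%. Serpinf1 and Serpinb5 were therefore lower in HET at day 10 under each of the 4 scalings, and the direction for Thbs2 depended on the scaling. Cxcl4 had a bound toward lower in HET under each scaling, but its bound could take no other direction.

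**Figure D2:**
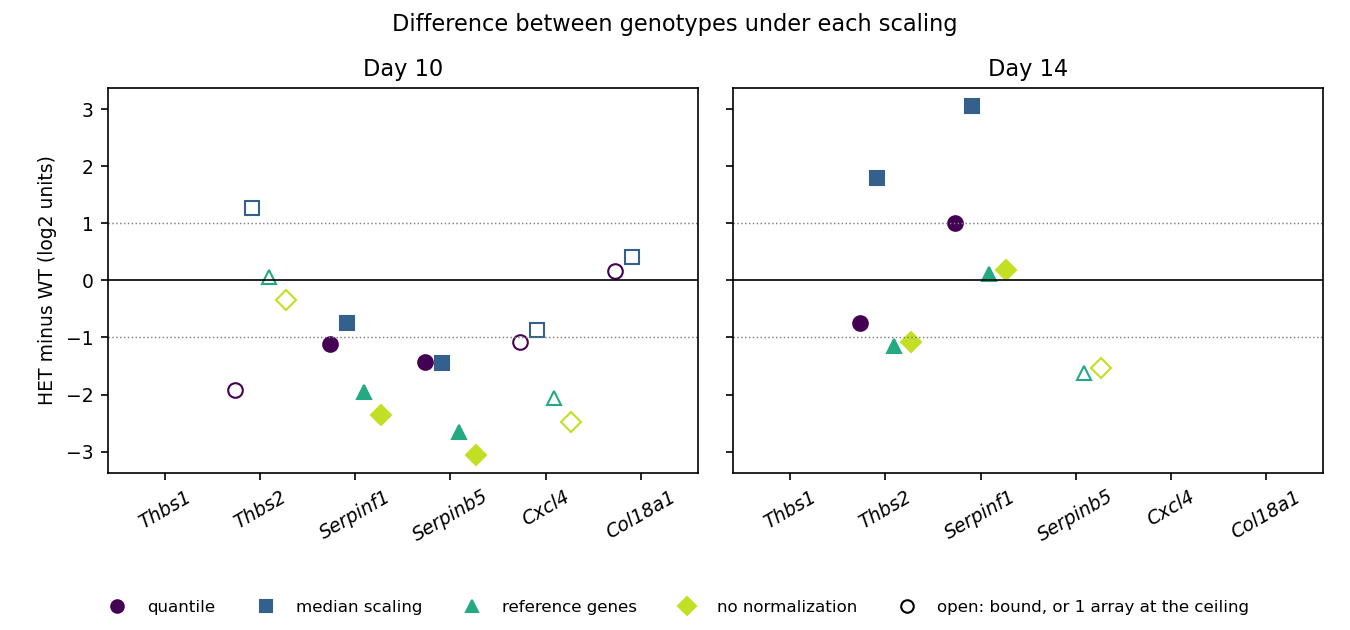
HET minus WT in log2 units for each gene at days 10 and 14 under 4 scalings (symbols), 1 array per genotype; open symbols are bounds or have 1 spot at the ceiling, dotted lines mark 1 log2 unit, and genes without a symbol have no fold. Serpinf1 lies below 0 at day 10 and above 0 at day 14 under each scaling, and Thbs2 lies on both sides of 0.

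At day 14, 2 members had a fold after quantile normalization. Serpinf1 was called higher in HET, by 1.01 log2 units, and Thbs2 was at -0.74, short of a call. Of all 46 genes with a fold, 4 (8.7%) were higher and 6 (13%) lower, so 1 of 2 members called higher is too few to set against that share. Without normalization Serpinf1 differed by 0.18 log2 units, Thbs2 by -1.08 and Serpinb5 by at most -1.54, and 2 of these 3 were called lower beside 64.4% of all 73 genes with a fold, with 1.37% higher. Scaled to medians, both members with a fold were called higher, Serpinf1 by 3.06 and Thbs2 by 1.80, beside 56.5% of all genes higher and 4.35% lower. Scaled to reference genes, Thbs2 (-1.16) and Serpinb5 (at most -1.62) were called lower beside 67.1% of all genes lower and 1.37% higher, and Serpinf1 was at 0.10.

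Serpinf1 thus changed sides between the later days, with -2.36 at day 10 and 0.18 at day 14 without normalization. The day 14 value is smaller than the pooled SD of repeat spots, 0.278 log2 units. Relative to the median measured difference of all 100 genes, Serpinf1 stood at -1.14 at day 10 and at 2.22 at day 14. Just 44 of these 100 genes were above background on the HET array at day 14, so spots below background helped to set that median. Between the 2 days the density of Serpinf1 went from 1115 to 5148 in HET, a 4.86-fold difference of background-corrected values, and from 5484 to 4633 in WT. In the authors' deposited table of ratios to Actb, the log2 difference HET minus WT for Serpinf1 was -2.37 at day 10 and 0.18 at day 14. The difference between the 2 days was not tested, since each rests on 1 pool per genotype. Such a change of sign was not particular to Serpinf1. Without normalization Tgfbr1 went from -1.05 to 0.55 and the reference gene Gapdh from -0.34 to 0.39. After quantile normalization Thbs3 went from -0.58 to 0.56, Thbs4 from -0.59 to 0.28 and Tgfbr2 from -1.49 to 0.90. Without normalization Thbs3, Thbs4 and Tgfbr2 stayed lower in HET at both days. The share of all genes that changed sign was not counted.

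**Figure D3:**
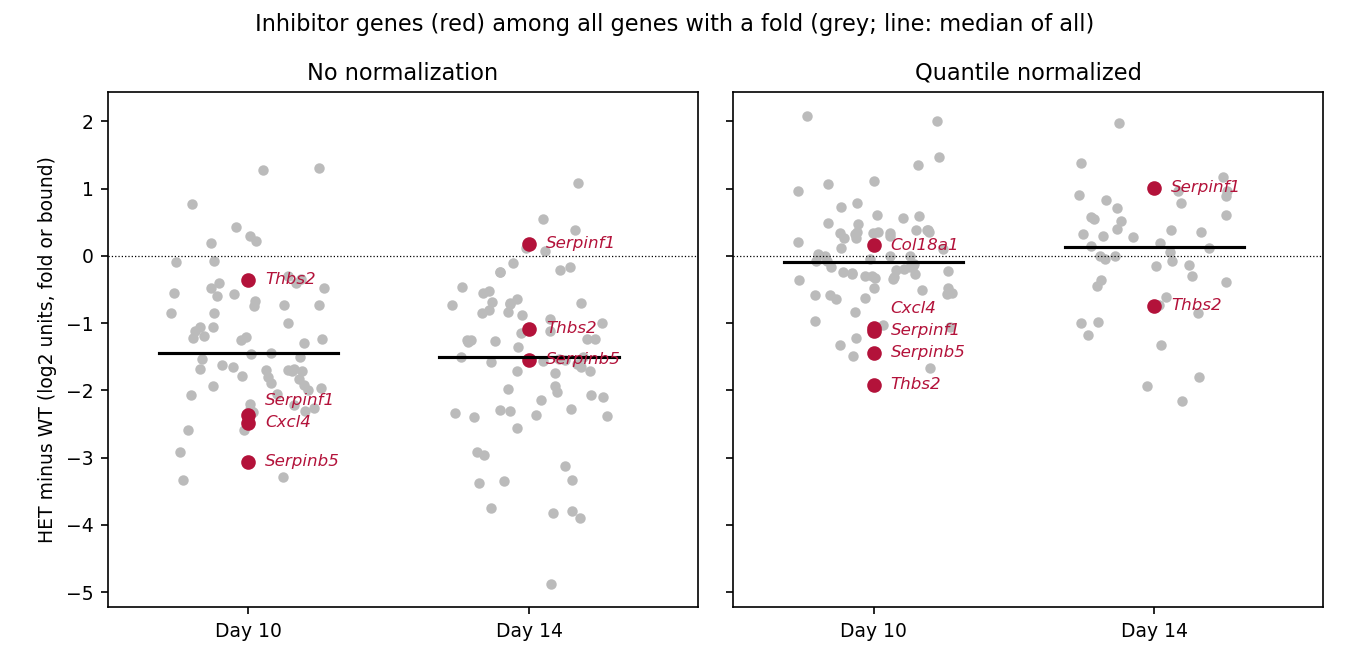
HET minus WT in log2 units (fold or bound) for all genes with a fold at days 10 and 14 (grey points; horizontal line, their median) and for the inhibitor genes (red, named), without normalization on the left and after quantile normalization on the right; points are spread sideways only to be seen. Without normalization the median of all genes lies below 0 at both days, and Serpinf1 lies below it at day 10 and above 0 at day 14.

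Over the 3 days together, no gene passed the test of genotype. That test was limma's linear model with day as a block, in which the days stand in for repeats and leave 2 residual degrees of freedom, with p-values adjusted by Benjamini-Hochberg over the 96 genes that cleared background on 1 array or more. It called 0 genes at an adjusted p under 0.05 after quantile normalization (0%), with 2 at an unadjusted p under 0.05, and also 0 without normalization (0%), with 0 at an unadjusted p under 0.05. The HET minus WT estimate was -0.91 for Thbs2 (SE 0.56, 95% interval -2.33 to 0.51, limma adjusted p = 0.87) and -0.44 for Serpinb5 (SE 0.55, -1.83 to 0.95, limma adjusted p = 0.87). For Serpinf1 it was -0.23 (SE 0.60, -1.75 to 1.28, limma adjusted p = 0.94). Each of these 3 intervals spans 0 and reaches past a 2-fold difference, so the test neither shows nor excludes a difference of that size. One of the genes at an unadjusted p under 0.05 was Col18a1, with an estimate of 1.86 (95% interval 0.67 to 3.05, limma unadjusted p = 0.0097, adjusted p = 0.87), on the normalized values of a gene below background on 5 of 6 arrays. The estimates for Thbs1 (0.77, interval -0.93 to 2.47, limma adjusted p = 0.87) and Cxcl4 (0.32, interval -1.39 to 2.03, limma adjusted p = 0.91) rest on spots at the ceiling or below background and give no fold. Day 7 adds no measured level to these estimates, as all 6 genes were below background then.

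The arrays also allow the days to be compared, over both genotypes. The thrombospondin genes rose, and both went from below background at day 7 to 76.6% or more of the highest density at day 10. From day 7 to day 10, limma called 31 of 96 genes after quantile normalization (32.3%), 17 higher (17.7%) and 14 lower (14.6%), and 3 of the 6 members were among them. Thbs1 rose by 5.63 log2 units (SE 0.82, limma adjusted p = 0.0063) and Thbs2 by 4.43 (SE 0.68, limma adjusted p = 0.0074). With the day 7 background taken into account, the normalized values differed by at least 2.70 for Thbs1 and at least 1.45 for Thbs2. Ranks among spots at or near the ceiling set these values, so they are no bounds on the difference in RNA. All 6 members entered this test only through arrays of days 10 and 14, as none was above background at day 7. The day 7 side of each estimate rests on spots below background, so its p-value adds no support beyond the densities. The same holds for the step from day 7 to day 14. Without normalization, when limma called 28 genes (29.2%), all of them higher, the bounds were at least 7.19 for Thbs1 and at least 7.01 for Thbs2.

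The third call, Col18a1, went down by 2.07 log2 units after quantile normalization (limma adjusted p = 0.044). This gene was below background on 5 of the 6 arrays, its difference was 0.54 in the other direction without normalization, and no fold can be given. Serpinf1 was at 0.58 after quantile normalization (SE 0.73, limma adjusted p = 0.58). Without normalization it rose by 4.75 (SE 1.18, limma adjusted p = 0.041), at least 2.82 when the day 7 background is taken into account. Serpinb5 was at 0.997 (limma adjusted p = 0.37) and Cxcl4 at 1.12 (limma adjusted p = 0.40) after quantile normalization, and neither passed without it (0.13 and 0.19, limma adjusted p).

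Within each genotype the same step can be given as a bound on unnormalized, background-corrected values, with no test. In WT, Thbs1 was at least 118-fold brighter at day 10 than at day 7, Thbs2 at least 117-fold and Serpinf1 at least 12.9-fold. Serpinb5 was at least 2.68-fold and Cxcl4 at least 1.48-fold brighter. Between the arrays labelled HET, Thbs1 was at least 182-fold, Thbs2 at least 142-fold and Serpinf1 at least 3.89-fold brighter at day 10. Of all genes with a fold, 56 of 74 (75.7%) in WT and 42 of 64 (65.6%) in HET were at least 2-fold brighter at day 10 without normalization, so a rise in density as such was common on these arrays.

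From day 7 to day 14, limma called 24 of 96 genes after quantile normalization (25%), 13.5% higher and 11.5% lower, and again Thbs1, Thbs2 and Col18a1 among the members. Thbs1 rose by 4.996 (SE 0.82, limma adjusted p = 0.014). Its normalized values differed by at least 2.06, which is again no bound on the difference in RNA. Thbs2 rose by 2.98 (SE 0.68, limma adjusted p = 0.032), with no bound after normalization and at least 6.52 without it. Col18a1, at -2.33 (limma adjusted p = 0.035), was below background on all 4 arrays of this comparison. Without normalization limma called 20 genes (20.8%), and Serpinf1 was among them, with a rise of 5.76 (SE 1.18, limma adjusted p = 0.028; at least 3.83). The comparisons of days 10 and 14 with day 7 share the day 7 arrays and are not independent. Leaving out the array labelled HET at day 7, which went against its label for Hif1a, kept the calls for Thbs1 and Thbs2 at both days, with limma adjusted p of 0.021 and 0.023 at day 10 and of 0.026 and 0.044 at day 14. Leaving out the WT or the HET array of day 10 ended both calls from day 7 to day 10 (limma adjusted p from 0.11 to 0.14), and leaving out any of the other 5 arrays ended both from day 7 to day 14 (limma adjusted p from 0.0504 to 0.23).

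**Figure D4:**
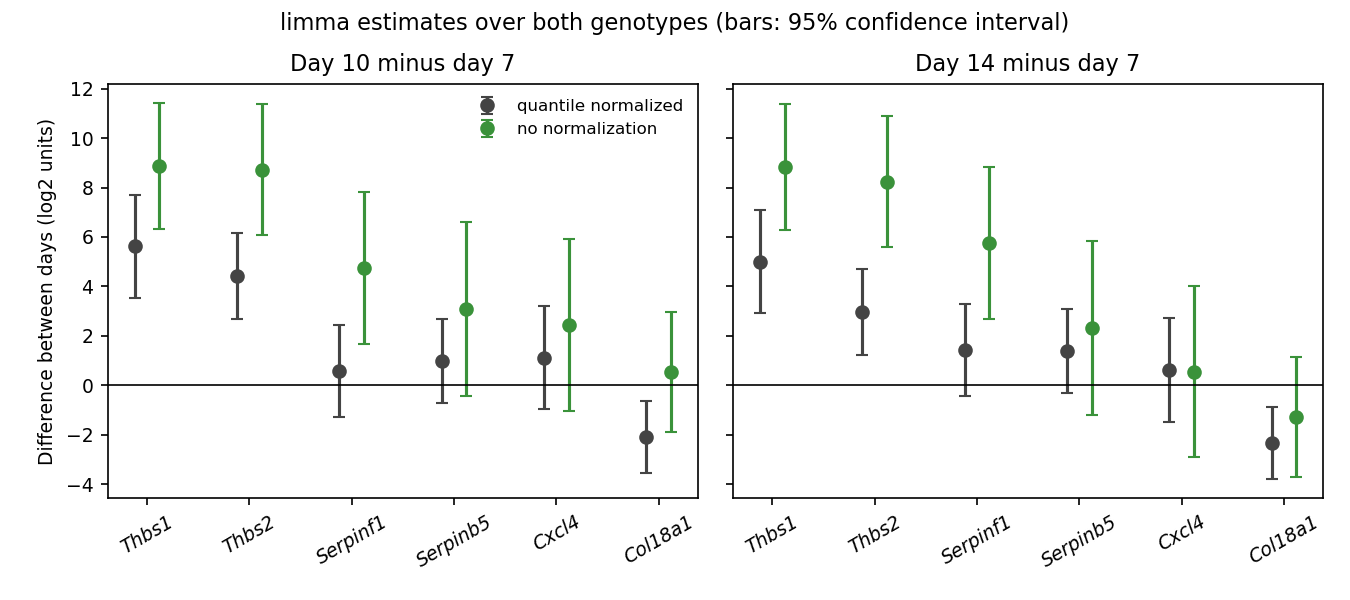
limma estimates of the difference between days in log2 units for each gene over both genotypes, day 10 minus day 7 on the left and day 14 minus day 7 on the right, after quantile normalization (grey) and without normalization (green); bars are 95% confidence intervals from 6 arrays. Thbs1 and Thbs2 lie above 0 in both panels under both scalings, and Col18a1, below background on 5 of 6 arrays, lies below 0 with its interval only after quantile normalization.

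From day 10 to day 14, limma called 0 of 96 genes with or without normalization (0%), with 7 and 5 genes at an unadjusted p under 0.05. Thbs2 was at -1.45 after quantile normalization (limma adjusted p = 0.58), Serpinf1 at 0.83 (limma adjusted p = 0.78) and Serpinb5 at 0.38 (limma adjusted p = 0.88). Thbs1 (-0.63, limma adjusted p = 0.82) was at the ceiling on all 4 arrays, and Col18a1 (-0.26, limma adjusted p = 0.88) and Cxcl4 (-0.50, limma adjusted p = 0.87) were above background on 1 of the 4, so these 3 have no fold. The steps of the single genotypes, without normalization and without a test, were -0.86 in HET for Thbs2 and at most -0.12 in WT, where the day 10 spot was at the ceiling. Serpinf1 stood at 2.28 in HET against -0.26 in WT. Serpinb5 stood at -0.88 in WT, and Cxcl4 at most at -1.05 in WT.

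Other genes of the same pathway on the array were read from lists of known function. Of 9 further inhibitors of angiogenesis, 8 had a fold at day 10 after quantile normalization, with 1 called higher in HET, 2 lower and a median of 0.10, against -1.11 for the 5 members and -0.09 for all genes. The higher one was Adamts1, a secreted protease with thrombospondin-type repeats, at 206 in WT and 636 in HET (at least 1.47). The lower ones, chosen after their values were seen, were the metalloproteinase inhibitors Timp2 (-1.22) and Timp1 (-1.03). At day 14, 4 had a fold, 0 were called higher and 2 lower with a median of -0.63: Adamts8, a relative of Adamts1, at 6295 in WT and 29.96 in HET (at most -1.80), and Chga, the precursor of the inhibitor vasostatin, at 39641 and 6674 (-1.33). Without normalization, 0 of the 8 with a fold were called higher and 4 lower at day 10, beside 2.82% and 63.4% of all genes.

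Of 6 receptors and partners of the members, 5 had a fold at day 10. Cd36, the scavenger receptor that binds both thrombospondins, was called higher in HET (1.07, densities 4665 and 6299), and the fibronectin receptor subunit Itga5 lower (-1.05, 1071 and 226). The median was -0.11. At day 14, 0 of 4 were called, with Itgav, a subunit of the vitronectin receptor, at most at -0.98. Of 3 matrix proteases, which can release inhibitor fragments from matrix, all had a fold at day 10 and 0 were called. They were Mmp9 (-0.84), Plau (-0.62) and Mmp2 (-0.21). Of 10 stimulators, 6 had a fold at day 10. Angpt2 (at least 2.08) and Angpt1 (1.11), ligands of the receptor Tek, were called higher in HET, and the VEGF family ligand Vegfb lower (at most -1.67). At day 14, 0 of the 5 stimulators with a fold were called. Beside these counts after quantile normalization stand 7.89% of all genes higher and 13.2% lower at day 10. Without normalization the day 10 counts were 0 higher and 4 lower of 5 receptors and partners, 0 and 3 of 3 proteases, and 1 and 4 of 6 stimulators, beside 2.82% and 63.4% of all genes. At day 14 they were 0 and 4 of 5, 0 and 1 of 3, and 0 and 5 of 8, beside 1.37% and 64.4%. In limma's test of genotype over the 3 days, 0 genes of any of these 4 lists passed.

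From day 7 to day 10, limma after quantile normalization called 0 of the 9 other inhibitors. It called 2 of the 6 receptors and partners higher and 0 lower. Of the 3 matrix proteases it called 1 higher and 1 lower, and of the 9 stimulators tested 1 higher and 3 lower. Without normalization it called 2 other inhibitors, 2 receptors and partners, 1 protease and 2 stimulators higher and 0 of any of these lists lower. The members' 3 of 6 stand beside 32.3% of all genes after quantile normalization and 29.2% without it.

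Markers of cells that could carry these RNAs are given as densities, on HET arrays that were dimmer as a whole. Of 8 endothelial markers on the array, 0 were above background at day 7 in either genotype. At day 10, 6 were in WT and 8 in HET, and at day 14, 6 against 4. At day 10 their densities summed to 72817 in WT and 55788 in HET, and at day 14 to 63120 and 46003. Most of each sum was the spot of Flt1, a VEGF receptor, at or near the ceiling, with 49686 in WT and 48633 in HET at day 10. After quantile normalization 0 of the 5 endothelial markers with a fold were called at day 10, with a median of -0.15. Both macrophage markers on the array were above background at days 10 and 14, with a day 10 sum of 40820 in WT against 40179 in HET and a day 14 sum of 8175 against 14391. The 3 bone matrix markers had a day 10 sum of 95896 in WT against 72599 in HET and a day 14 sum of 101445 against 73227, with Sparc at the ceiling in WT at day 10 and in both genotypes at day 14. After quantile normalization 0 of the 3 were called at day 10. The part of these cells in the members' values was not tested.

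There were 4 members above background on at least 3 arrays. For each, the 3 most similar gene profiles were taken, as the mean absolute difference of quantile normalized log2 values over the 6 arrays after each gene was centred on its own mean. The profiles most like that of Thbs1, among 70 candidates, were those of Efnb2 (0.50 log2 units), Tgfb3 (0.52) and Fgf7 (0.53), where the median candidate differed by 2.20. For Thbs2 they were Tek (0.73), Efnb2 (0.76) and Fgf16 (0.81), with a median of 1.61. Serpinf1 and Serpinb5 were nearest to each other (0.32), then to Pecam1 (0.34 from each), and then to Il12a (0.46) and Nos3 (0.34), with medians of 1.06 and 1.03. Without normalization only 1 of these 12 neighbours, Fgf7 for Thbs1, stayed among the 3 nearest. The others ranked from 5 to 39, with Serpinb5 at 24 among the genes nearest Serpinf1. All profiles share the same 6 arrays, 2 of them with most genes below background, so likeness is a description only.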

How the data were processed

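Per the labels' protocols, callus RNA of 3 animals per group was pooled, and 3 ug was amplified and labelled with biotin. The deposited scanner files give each spot's intensity as a density on a linear scale, with no local background; the sources used here do not name the software that read the image. The authors also deposited a ratio per spot, and every filled ratio equalled (density - lowest density) / (mean Actb density - lowest density) within 1e-06. Medians of the filled ratios ran from 0.0017 to 0.158, the values are linear and not centred, and a ratio is filled for 0 to 4 of the 6 genes per array. The sources used here do not say why other spots are empty. Of the 7 scanner files of the angiogenesis arrays, a second file of the HET day 7 sample equals the WT day 7 file in 112 of 112 spots and was not used.

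Densities were corrected with normexp in limma 3.58.1 (R 4.3.3) on all spots, with an offset of 25.9 (10% of the median gene spot density of the 12 arrays, 259.0), taken to log2, averaged over a gene's spots and quantile normalized between the 6 arrays without control spots. For a bound, the dim spot was set to its own value or to that of the dimmest gene that cleared background on its array, taking the higher of them. Tests were two-sided, with lmFit and eBayes on 96 genes, terms for day and genotype, Benjamini-Hochberg adjustment and a threshold of 0.05. On simulated data of these 96 genes with 20 changed, the genotype test recovered 74.4% of changes of 2 log2 units and 100% of changes of 4, and the day 10 minus day 7 test 43.6% and 100%. The simulation gave all genes the same noise, set from the median residual variance of the fit. In the data the spread differed between genes, with genotype SEs of 0.45 for Tek and 1.59 for Rnase4. The rates may thus be too high for these data. Whether they hold for genes below background or at the ceiling was not tested. All 6 members were below background at day 7, and Thbs1 was at the ceiling on 4 arrays. The number of arrays limits the precision. Within arrays, repeat spots of reference genes had a pooled SD of 0.278 log2 units over 15 sets. The alternatives were other scalings, offsets, control limits and ceilings, no background correction, no filter, the deposited ratios and leaving out arrays.

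All 6 genes are named, with or without a fold, Hif1a as the targeted gene, from each list at most the 3 genes with the largest normalized difference between genotypes, and for each member above background on at least 3 arrays the 3 nearest profiles. Thbs3, Thbs4, Tgfbr2, Tgfbr1 and Gapdh are named for their change of sign and were chosen after their values were seen. The members and lists were chosen with earlier results of these data known. Start regions are from RefSeq, GRCm38.p6.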

Additional observations from a re-analysis of the deposited data

Results flagged for a closer look

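Serpinf1 differed between the genotypes in opposite directions at the later days. After quantile normalization HET minus WT was -1.11 log2 units at day 10 and 1.01 at day 14. The sign was the same under each of 3 other scalings, with -0.75 and 3.06 after median scaling, -1.95 and 0.10 after reference gene scaling and -2.36 and 0.18 without normalization. The day 14 value is close to 0 under the last 2 scalings, and repeat spots of reference genes within an array had a pooled SD of 0.278 log2 units. Each value rests on 1 pool per genotype, and the difference between the days was not tested. Other genes, among them Thbs3, Thbs4, Tgfbr2, Tgfbr1 and Gapdh, also changed sign under 1 scaling or more.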

How the results depend on the processing

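Without replicates, 1 pool per group, the ceiling and the control spots limit every value, and the thrombospondin spots have no upper limit to their difference. Genes called higher in HET at day 10 (6) numbered 19 with median scaling, 3 with reference gene scaling, 2 without normalization and 1 in the authors' ratios; those lower (10) numbered 4, 36, 45 and 17, and 3 with 1 control limit for all arrays. At day 14 the higher ones (4) numbered 26, 1, 1 and 1, and 7 without the day 7 arrays, an alternative chosen after seeing the data; the lower ones (6) numbered 2, 49, 47 and 17. At day 7 the higher one (1) became 2 with reference gene scaling or without normalization, 0 without background correction or with 1 control limit, and 7 in the authors' ratios; the lower one (1) became 2 with median scaling. From day 7 to day 10, limma's 31 calls became 68 with reference gene scaling and 0 to 37 with 1 array left out: 0 without the WT or the HET array of day 10, 16 without either of day 14. From day 7 to day 14, its 24 calls became 15 without genes at the ceiling, which leaves fewer genes to test, and 0 to 33 with 1 array left out: 0 without any array but that labelled HET at day 7.

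Reversed with median scaling were Thbs2 at day 10 (1.26), Thbs2 and Serpinf1 in the genotype estimate (1.04 and 0.75), Cxcl4 and Serpinb5 from day 7 to 10 (-0.89 and -0.24), Cxcl4 from day 7 to 14 (-1.72) and Thbs2 from day 10 to 14 (0.56). With reference gene scaling they were Thbs2 at day 10 (0.058), Col18a1 from day 7 to 10 (1.45) and Serpinb5 from day 10 to 14 (-1.72), and without normalization the last 2 (0.54 and -0.78). With each array left out in turn, estimates that changed sign ran from -0.86 to 0.20 for Serpinf1 and from -0.76 to 0.058 for Serpinb5 in the genotype estimate (reversed without either day 10 array). From day 7 to 10 they ran from -0.074 to 1.24 for Serpinf1 and from -0.018 to 2.27 for Cxcl4 (reversed without WT day 10), and from day 7 to 14 from -0.33 to 1.57 for Cxcl4 (without WT day 7). From day 10 to 14 they ran from -0.36 to 1.13 for Serpinb5 (without HET day 10 at -0.36 or HET day 14 at -0.095) and from -0.10 to 1.76 for Serpinf1 (without HET day 14). Leaving out genes with a spot at the ceiling of a pair changed no count of called genes by over 1.5 times. The cause was not tested.

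No paired analysis was possible because the labels give no replicate numbers; day is already a block, and the genotype test with no replicate block called 0 genes too.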
